A study of Mus musculus with 12 samples.

Results

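The neural stem and progenitor genes described here are *Sox2*, *Sox4*, *Sox9*, *Sox11*, *Nes*, *Prom1*, *Pou3f2*, *Dcx*, *Nfia* and *Nfib*. They are the rows of the deposited expression table that carry one of these symbols, and all 10 were found among its 18180 genes, each with a value in every library. The table holds bulk RNAseq of EGFR+ cells sorted from 3 mouse GBMs (T3, T4 and T5), each of which gave 1 library of PDGFRA+, PDGFRA-, GAL1+ and GAL1- cells, so that the 12 libraries form 4 groups of 3. The tumors arose on a mixed background, given as C57Bl/6J, 129S4, FVBN/J and Balb/cJ in the labels and with SJL added in the study's methods, after a Cre lentivirus was injected into the brain of adult mice whose engineered alleles included conditional human *EGFR*, a conditional luciferase reporter and loss of *Cdkn2a*, and they were taken at end stage. All 4 groups share the same alleles and the virus, and the groups differ only in the sort. Cells of each tumor were stained for EGFR with either PDGFR or Galectin-1 (GAL1, the product of *Lgals1*), so the PDGFRA and the GAL1 sorts each split the EGFR+ cells of the same tumor along one marker, and cells of one sort could also have fallen into the other. There were no tumor-free or untreated samples in this experiment.

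As background, neural stem cells of the embryonic ventricular zone and of the adult subventricular zone are kept in an uncommitted state by SOXB1 factors such as SOX2, which bind DNA together with POU partners such as POU3F2 (BRN2). SOX9, NFIA and NFIB take part in the switch from making neurons to making glia, whereas SOX4, SOX11 and the microtubule-binding protein doublecortin (DCX) mark cells that have begun to become neurons. Nestin (NES) is an intermediate filament protein and prominin-1 (PROM1, CD133) a membrane glycoprotein of apical protrusions, and both have long been used to pick out stem-like cells in brain and in glioma.

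Promoter sequences are shown for *Sox2*, *Sox4* and *Sox11*, which moved together in the comparison of the GAL1 sort below, and for *Prom1*, which did not. Each line gives the 120 bases before the transcription start in the RefSeq annotation of GRCm38.p6, read 5′ to 3′ on the strand of the gene. Capitals mark CCAAT, the CCAAT box, or its reverse complement ATTGG. The windows are chr3:34649875-34649994 on the plus strand for *Sox2*, chr13:28953700-28953819 on the minus strand for *Sox4*, chr12:27342719-27342838 on the minus strand for *Sox11*, and chr5:44101737-44101856 on the minus strand for *Prom1*.
Sox2: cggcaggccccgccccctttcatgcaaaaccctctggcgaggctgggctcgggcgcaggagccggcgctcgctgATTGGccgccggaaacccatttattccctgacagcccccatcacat
Sox4: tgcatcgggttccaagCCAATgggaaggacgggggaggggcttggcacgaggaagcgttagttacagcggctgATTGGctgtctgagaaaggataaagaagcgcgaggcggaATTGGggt
Sox11: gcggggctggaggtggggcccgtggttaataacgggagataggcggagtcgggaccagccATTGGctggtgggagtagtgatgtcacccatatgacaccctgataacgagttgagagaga
Prom1: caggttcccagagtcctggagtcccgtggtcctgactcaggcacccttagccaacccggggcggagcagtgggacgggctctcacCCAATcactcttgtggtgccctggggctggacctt

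A 300-base RefSeq window, from 250 bases before to 50 bases after the start, was given for 8 of the 10 genes, and not for *Sox9* and *Nfib*. On either strand, CCAAT occurred in 7 of these 8 windows, all but that of *Nes*, and in 37.41% of all 32851 windows. In *Sox2*, *Sox11* and *Prom1* it began 46, 60 and 35 bases before the start, and the 300 bases of *Sox4* held 4 copies. The letters are thus present in *Prom1*, whose level did not follow that of the other genes, as well as in those that moved together. The SOX-type letters ACAAAG were found in the *Sox2* window alone among the 8 and in 18.71% of all windows, and ACAATG in the *Nfia* window alone and in 12.57% of all. The octamer ATGCAAAT, bound by POU factors, was in none of the 8 and in 1.74% of all windows, and its core ATGCAAA, which is part of the octamer, was in *Sox2* and in 4.63% of all. The letters TTGGCA, part of the site of NFI factors, were in *Sox4*, *Pou3f2* and *Dcx* and in 14.12% of all, and the E-box CAGCTG in *Sox4* and *Sox11* and in 16.3% of all. All letters were searched on both strands.

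Expression is given as log2 CPM, the log2 of CPM (reads scaled to a common library size by TMM), as the authors deposited it, so that a step of 1 is a doubling. Recovered reads per library ranged from 9851175 to 24117541, and a floor of 3 reads lay between a log2 CPM of -2.99 and -1.44. The 10 genes were far above that floor in every library. The fewest reads in a library were 32 for *Prom1*, 40.1 for *Pou3f2* and 45.6 for *Dcx*, and the other 7 genes had at least 115 reads in each. The floor of 3 reads covers counting error only, whereas the intervals given below come from the fit to the libraries. A limma model of all 12 libraries, blocked by tumor, gave the differences between populations, and a gene was called where its p, adjusted by Benjamini-Hochberg over the 18180 genes, was under 0.05. Per kilobase of exon, *Sox2* and *Nes* stood highest of the 10 in PDGFRA+ cells, both with a mean log2 CPM per kb of 5.40, while *Dcx* was at 1.61 and *Prom1* lowest at -0.51.

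The sorted cells also carried leukocyte RNA, and its amount differed between the populations. Summed over 12 pan-leukocyte genes, the level was 86.51 to 232.1 CPM in GAL1- libraries, 723.5 to 1746 CPM in PDGFRA+ libraries, 760.7 to 3468 CPM in PDGFRA- libraries and 3232 to 4562 CPM in GAL1+ libraries. Summed levels of 8 oligodendrocyte progenitor genes were 3866 to 4782 CPM in GAL1- libraries, 3085 to 4522 CPM in PDGFRA+ libraries, 1123 to 3245 CPM in PDGFRA- libraries and 442.4 to 1432 CPM in GAL1+ libraries. This list includes *Pdgfra*, the gene of one sort marker, as well as *Olig1* and *Olig2*. The study reports oligodendrocyte differentiation genes, these Olig genes among them, as upregulated in PDGFRA+ against GAL1+ cells of this same experiment. Which cells the RNA of this list came from was not tested. The study describes the sorted cells as CD45-. *Ptprc*, the gene of CD45, was between a log2 CPM of 3.70 and 8.997 in the 12 libraries. Of the genes behind the sorts, *Lgals1* was called higher in GAL1+ than in GAL1- cells (adjusted p = 0.00097), and *Pdgfra* was higher in PDGFRA+ than in PDGFRA- cells in 3 of 3 tumors but was not called by limma (adjusted p = 0.25). The PDGFRA- library of T5 stood apart from the other 2 of its group, with 3468 CPM of pan-leukocyte RNA against 1288 and 760.7 CPM. In these bulk libraries, fewer cells of a type and less RNA per cell cannot be told apart.

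**Figure D1:**
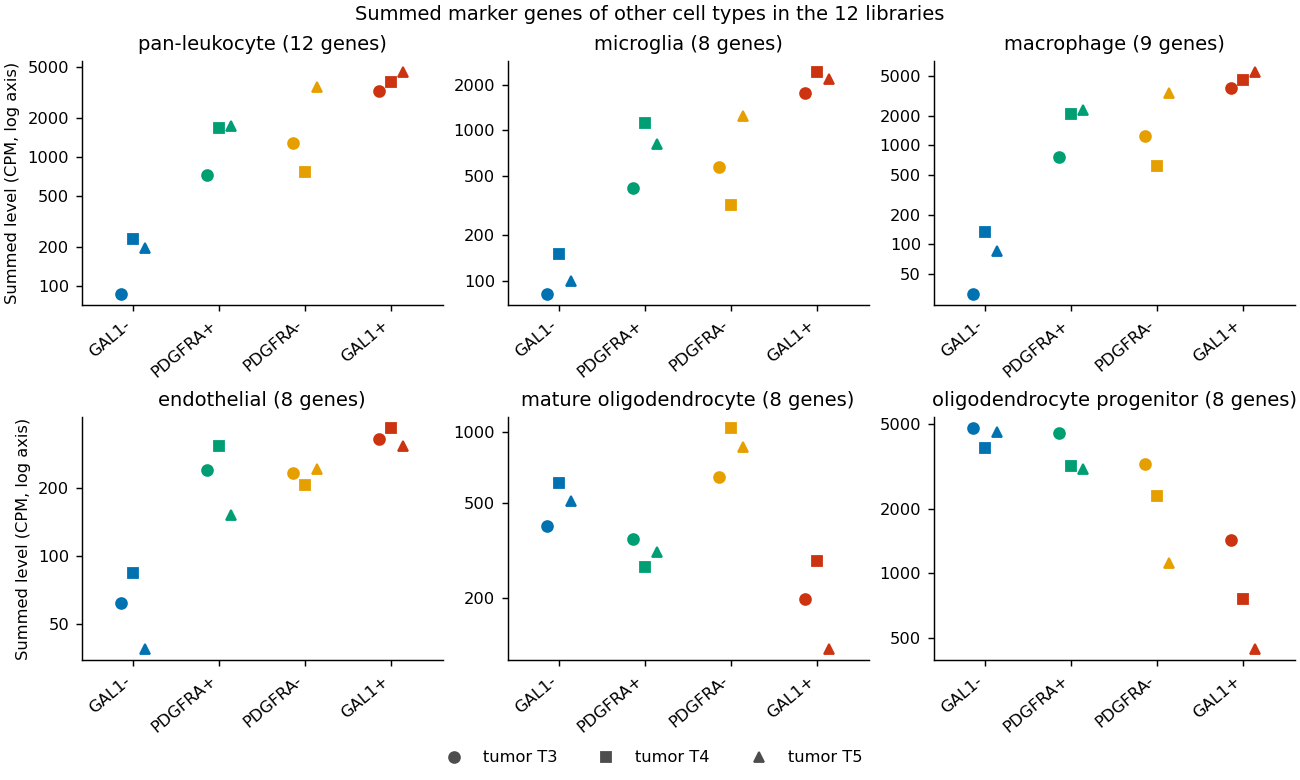
Summed levels in CPM (log axis) of 6 marker lists in the 12 libraries, with the population on the x axis and the tumor as the symbol. Leukocyte, microglia, macrophage and endothelial sums are lowest in the 3 GAL1- libraries and highest, or level with the highest, in the 3 GAL1+ libraries, the oligodendrocyte progenitor sum is 3866 to 4782 CPM in GAL1- and 442.4 to 1432 CPM in GAL1+ libraries with PDGFRA+ libraries overlapping the former range and PDGFRA- libraries the latter, and the T5 PDGFRA- library lies near the GAL1+ libraries in its pan-leukocyte sum of 3468 CPM.

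Of the 10 genes, 9 had the lowest mean in GAL1+ cells and the highest in GAL1- cells. For 8 genes the order of the means was GAL1-, PDGFRA+, PDGFRA-, GAL1+. *Sox4* had PDGFRA- above PDGFRA+ cells, and *Prom1* alone had its highest mean in GAL1+ and its lowest in GAL1- cells. Of neighbours in these orders, no top or middle pair was called for any of the 10 genes in the fit to all libraries (smallest adjusted p = 0.347, *Dcx* in PDGFRA+ against PDGFRA- cells), although 4 genes were called in PDGFRA+ against GAL1- cells when those libraries were fitted alone (given below). The bottom pair was called for 5 genes, *Sox2*, *Sox4*, *Sox11*, *Pou3f2* and *Dcx*.

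**Figure D2:**
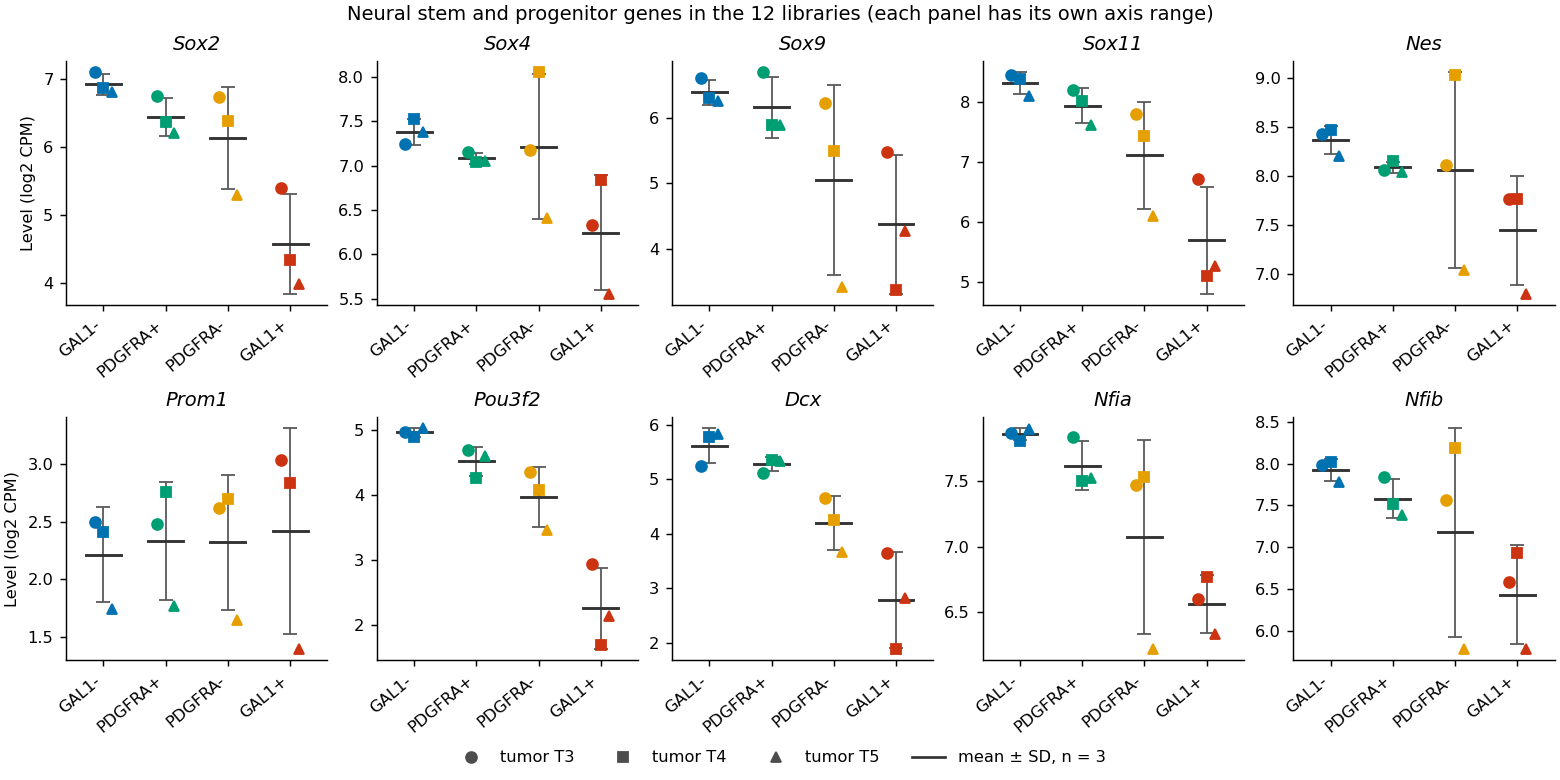
Level of each gene in log2 CPM in the 12 libraries, by population on the x axis and tumor as the symbol, with bars for the mean and SD of 3 tumors. The GAL1+ libraries lie under the GAL1- libraries for every gene but *Prom1*, and the axis range differs between panels.

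The comparison of GAL1+ with GAL1- cells asked whether these genes separate the 2 arms of the Galectin-1 sort. *Sox2*, *Sox4*, *Sox9*, *Sox11*, *Nes*, *Pou3f2*, *Dcx*, *Nfia* and *Nfib* were lower in GAL1+ cells, by 1.90 to 7.16 fold, and *Prom1* did not pass the test. The 9 calls compare with 29.3% of all genes called lower in GAL1+ cells. The median log2 fold change of the 10 genes was -1.75, against -0.03 over all genes. The 3 GAL1+ libraries lay below the 3 GAL1- libraries for each of the 9, which was so for 30.5% of all genes.

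*Sox2*, the SOXB1 factor of neural stem cells, was at a log2 CPM of 7.10, 6.87 and 6.82 in the GAL1- libraries of T3, T4 and T5, and at 5.39, 4.34 and 3.98 in the GAL1+ libraries. All 3 GAL1+ values were under every GAL1- value, in CPM 15.8 to 41.9 against 113 to 138. The log2 fold change was -2.36 (SE 0.24, adjusted p = 5.81e-05). *Pou3f2*, the gene of its POU partner, was at 4.96, 4.89 and 5.03 in GAL1- libraries and at 2.93, 1.69 and 2.13 in GAL1+ libraries. It was the most even of the 10 among the GAL1- libraries after *Nfia* (SD 0.07 and 0.05), and it fell by 2.71 on the log2 scale (SE 0.25, adjusted p = 4.82e-05).

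Of the genes of neuronal commitment, *Dcx* fell most, from 5.24, 5.77 and 5.84 in GAL1- libraries to 3.64, 1.87 and 2.82 in GAL1+ libraries. The log2 fold change was -2.84 (SE 0.39, adjusted p = 0.00025), the largest drop among the 10, and within the tumors it ran from -1.60 in T3 to -3.90 in T4. *Sox11*, a SOXC factor that acts in newborn neurons, was at 8.45, 8.39 and 8.11 in GAL1- and at 6.72, 5.10 and 5.26 in GAL1+ libraries. These values did not overlap, and the log2 fold change was -2.62 (SE 0.32, adjusted p = 0.00013). *Sox4*, the other SOXC factor here, was at 7.24, 7.53 and 7.38 in GAL1- and at 6.33, 6.84 and 5.55 in GAL1+ libraries, which is -1.14 as a log2 fold change (SE 0.29, adjusted p = 0.0071). Its drop was smaller than that of *Sox11* in each of the 3 tumors; the difference between the genes was not tested. In the GENCODE M21 annotation, 54.56% of the exonic length of *Sox4* is shared with *Gm26735*, a noncoding gene on the opposite strand. The strand setting of the read counting is not given in the sources used here, so the reads of the overlapping genes cannot be told apart.

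Among the genes of gliogenesis, *Sox9* was at 6.61, 6.30 and 6.25 in GAL1- libraries and at 5.48, 3.38 and 4.27 in GAL1+ libraries. Its GAL1+ values spread over 2.11 on the log2 scale, the widest of the 10 genes in that group, and its log2 fold change of -2.01 had the largest SE of the 10 (0.49, adjusted p = 0.0061). *Nfia* was at 7.87, 7.81 and 7.90 in GAL1- and at 6.60, 6.77 and 6.33 in GAL1+ libraries, and the log2 fold change was -1.29 (SE 0.25, adjusted p = 0.0017). *Nfib* was at 7.99, 8.01 and 7.78 in GAL1- and at 6.58, 6.93 and 5.78 in GAL1+ libraries, a difference of -1.50 (SE 0.36, adjusted p = 0.0059). Both NFI genes were thus lower in all 3 tumors, and *Sox9* in T4 fell furthest, by 2.93 on the log2 scale.

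The 2 genes used as stem cell surface and filament markers moved least. *Nes* was at 8.43, 8.46 and 8.21 in GAL1- and at 7.77, 7.77 and 6.80 in GAL1+ libraries, so the groups did not overlap, and its log2 fold change was -0.92 (SE 0.30, adjusted p = 0.026). Without the tumor block its adjusted p was 0.090, without T3 it was 0.10, and without T5 it was 0.063. *Prom1* was at 2.50, 2.41 and 1.74 in GAL1- and at 3.04, 2.83 and 1.39 in GAL1+ libraries, which overlapped. It was higher in GAL1+ cells in T3 and T4 and lower in T5, and its log2 fold change of 0.21 (95% interval -0.27 to 0.68, adjusted p = 0.43) has an interval that lies above the estimate of each of the other 9 genes. *Sox4* and *Nfib* kept their calls without the block, but without T3 their adjusted p-values were 0.058 and 0.063.

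**Figure D3:**
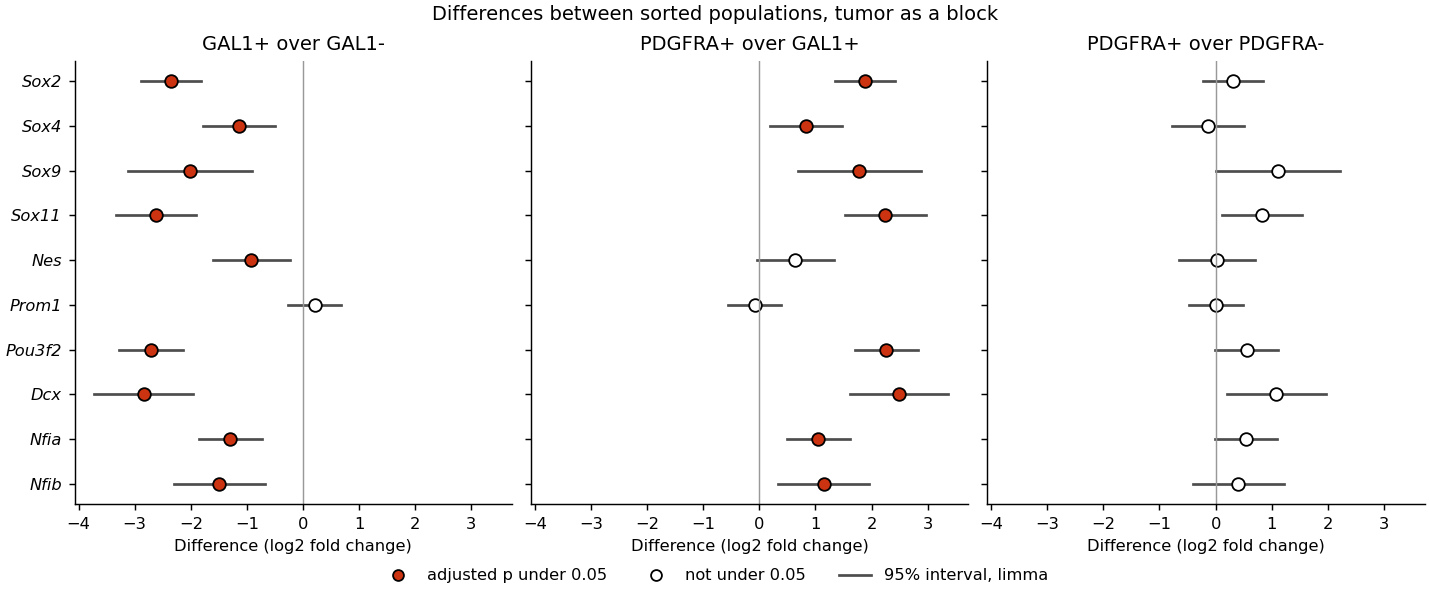
Log2 fold changes of the 10 genes (x axis) with 95% limma intervals in 3 comparisons, filled where the adjusted p was under 0.05. The left and middle panels have 9 and 8 filled points, and the right panel, PDGFRA+ over PDGFRA- cells, has none.

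PDGFRA+ cells were compared with GAL1+ cells, the contrast of the 2 marker-positive populations. *Sox2*, *Sox4*, *Sox9*, *Sox11*, *Pou3f2*, *Dcx*, *Nfia* and *Nfib* were higher in PDGFRA+ cells, by 1.79 to 5.63 fold, and *Nes* and *Prom1* did not pass the test. These 8 calls stand beside 20.9% of all genes called higher in PDGFRA+ cells. The median log2 fold change was 1.47 over the 10 genes and 0.01 over all genes, and 9 genes did not overlap between the groups, all higher in PDGFRA+ cells as were 23.5% of all genes. This contrast shares its GAL1+ libraries with the one above, so the 2 are not independent.

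*Dcx* was at 5.12, 5.35 and 5.34 in the PDGFRA+ libraries of T3, T4 and T5, every one at least 1.48 above its GAL1+ library of the same tumor, and was higher by 2.49 (SE 0.39, adjusted p = 0.0021). *Pou3f2* was at 4.69, 4.26 and 4.59 in PDGFRA+ libraries (log2 fold change 2.26, SE 0.25, adjusted p = 0.0014). *Sox11* was at 8.19, 8.02 and 7.61 (log2 fold change 2.25, SE 0.32, adjusted p = 0.0017). For these 3 genes the difference was larger than the range within either group. *Sox2*, at 6.76, 6.37 and 6.20, was higher by 1.88 (SE 0.24, adjusted p = 0.0014). *Sox9*, at 6.70, 5.89 and 5.89, was higher by 1.78 (SE 0.49, adjusted p = 0.020; 0.080 without the block). *Nfia* and *Nfib* were higher by 1.05 and 1.15 on the log2 scale (adjusted p = 0.011 and 0.033; without the block *Nfib* had 0.12).

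*Sox4* and *Nes* were the most even of the 10 among PDGFRA+ libraries, at 7.15, 7.04 and 7.05 for *Sox4* (SD 0.06) and 8.06, 8.15 and 8.04 for *Nes* (SD 0.06). *Sox4* was called in PDGFRA+ over GAL1+ cells at 0.84 on the log2 scale (adjusted p = 0.043, or 0.14 when tumors were not blocked). *Nes* had 0.64 (95% interval -0.04 to 1.33, adjusted p = 0.12), with all 3 PDGFRA+ libraries above all 3 GAL1+ libraries. *Prom1*, at 2.48, 2.76 and 1.76 in PDGFRA+ libraries, had a log2 fold change of -0.08 (95% interval -0.56 to 0.39, adjusted p = 0.78). Without T3, 4 of the 10 genes were called in this contrast, and 2110 of all genes against 6900.

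In the other contrast with GAL1+ cells, that of PDGFRA- cells, 5 genes were higher in PDGFRA- cells, against 13.2% of all genes. They were *Pou3f2* (log2 fold change 1.71, SE 0.25, adjusted p = 0.0063), *Sox2* (1.57, SE 0.24, adjusted p = 0.0067), *Sox11* (1.42, SE 0.32, adjusted p = 0.019), *Dcx* (1.41, SE 0.39, adjusted p = 0.035) and *Sox4* (0.97, SE 0.29, adjusted p = 0.041). Estimates that did not pass were 0.75 for *Nfib*, 0.67 for *Sox9*, 0.62 for *Nes*, 0.51 for *Nfia* and -0.10 for *Prom1*. Without the block *Pou3f2* alone was called, with 3.4% of all genes called higher. The adjusted p of the other 4 then ran from 0.051 for *Sox2* to 0.16 for *Sox4*. Leaving out the T5 PDGFRA- library raised the count to 9 of 10, all but *Prom1*, and the share of all genes called higher from 13.2% to 18.7%. Leaving out T4 lowered the count to 0, with 0 of all genes called. Leaving out T3 lowered the count to 2, with 4.15% of all genes called higher.

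That T5 library held the lowest of the 3 PDGFRA- values for each of the 10 genes. *Sox9* was at 6.22 and 5.50 in the PDGFRA- libraries of T3 and T4 and at 3.42 in that of T5, below the GAL1+ library of the same tumor (4.27). *Nfib* was at 7.56, 8.19 and 5.78, the last equal to its GAL1+ library to 2 decimals, and *Nfia* was at 7.47, 7.53 and 6.21. *Nes* was at 8.11, 9.03 and 7.03, and its T4 value was the highest of that gene in the 12 libraries. *Sox4*, at 7.18, 8.05 and 6.41, also had its highest value in the T4 PDGFRA- library. The T5 library thus stood 0.90 to 2.80 on the log2 scale below the highest library of its group, together with its pan-leukocyte sum of 3468 CPM; the part of that sum in these values was not tested.

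**Figure D4:**
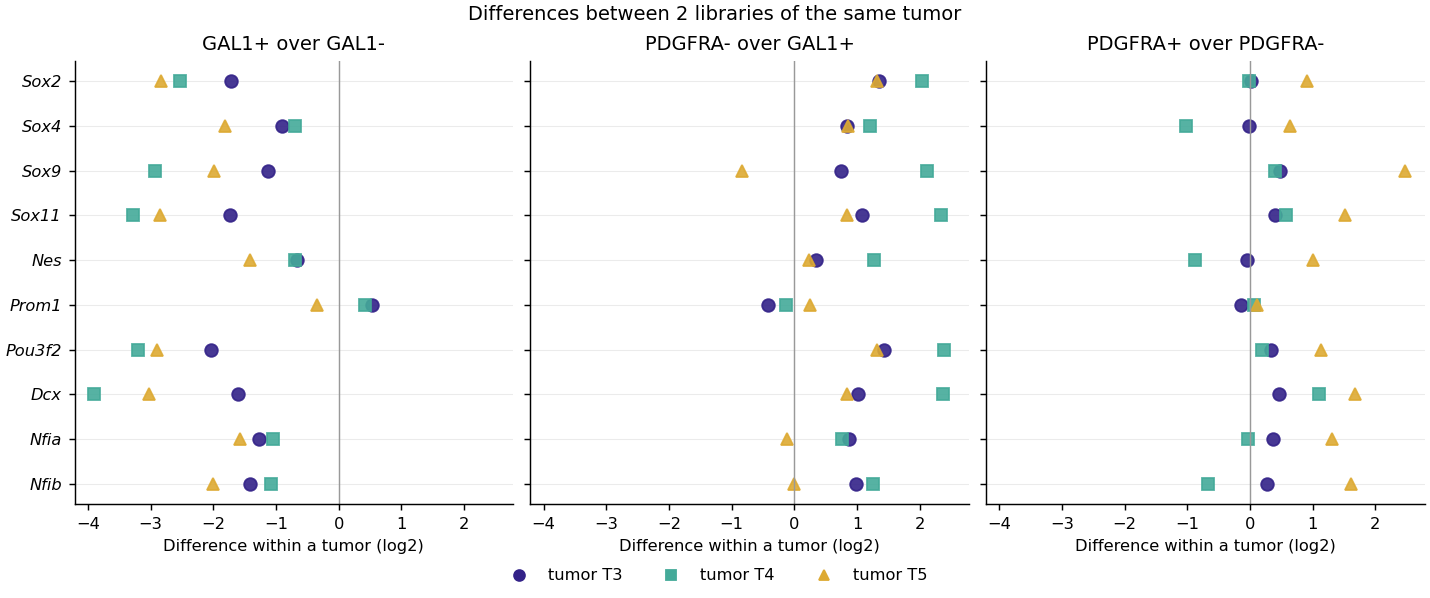
Differences in log2 CPM between 2 libraries of the same tumor (x axis) for the 10 genes in 3 comparisons, with the tumor as the symbol. GAL1+ over GAL1- differences are negative in all 3 tumors for 9 genes, and PDGFRA+ over PDGFRA- differences are positive for all 10 genes in T5 but for 7 in T3 and 5 in T4.

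Within the PDGFRA sort itself, none of the 10 genes was called in PDGFRA+ over PDGFRA- cells, where limma called 0% of all genes (0 of 18180, smallest adjusted p = 0.18; 11.8% had an unadjusted p under 0.05). An unadjusted p under 0.05 was found for 3 of the 10, *Dcx*, *Sox11* and *Sox9*, all higher in PDGFRA+ cells, against 6.02% of all genes in that direction. *Dcx* was at 4.66, 4.25 and 3.67 in PDGFRA- libraries, all under its 3 PDGFRA+ values of 5.12, 5.35 and 5.34, and it was the only one of the 10 without overlap, as 3.51% of all genes were in that direction. Its log2 fold change was 1.08 (SE 0.39, 95% interval 0.20 to 1.96, adjusted p = 0.35). *Sox9* had 1.11 (95% interval 0.01 to 2.21, adjusted p = 0.42) and *Sox11* 0.83 (95% interval 0.11 to 1.55, adjusted p = 0.38). The estimates were 0.55 for both *Pou3f2* and *Nfia*, 0.40 for *Nfib*, 0.30 for *Sox2* and -0.13 for *Sox4*. For *Nes* and *Prom1* they were 0.03 and 0.01, with intervals from -0.66 to 0.71 and from -0.46 to 0.49. The 10 genes had a median of 0.31 in T3, 0.03 in T4 and 1.22 in T5. Without the T5 PDGFRA- library the log2 fold change of *Sox9* went from 1.11 to 0.38 and that of *Dcx* from 1.08 to 0.76, and no gene of the 10 was called.

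PDGFRA+ and GAL1- cells had the smallest median difference in these genes of the 6 pairs of populations. None of the 10 was called by limma, and none had an unadjusted p under 0.05 (17.3% of all genes did). In this contrast 8.27% of all genes were called, nearly all of them higher in PDGFRA+ cells (1502 higher and 2 lower). Estimates for 9 of the 10 were negative, with lower means in PDGFRA+ cells, and the median log2 fold change was -0.32. Within tumors, 8 of the 10 (all but *Sox9* and *Prom1*) were lower in PDGFRA+ cells in 3 of 3, as were 27.9% of all genes. The groups did not overlap for *Sox2*, *Sox4*, *Nes* and *Pou3f2*, all lower in PDGFRA+ cells, as were 9.22% of all genes. *Sox2* had the lowest adjusted p of the 10, at a log2 fold change of -0.48 (95% interval -1.02 to 0.05, adjusted p = 0.35), and the estimates of the others were -0.45 for *Pou3f2*, -0.38 for *Sox11*, -0.35 for *Dcx*, -0.34 for *Nfib*, -0.30 for *Sox4*, -0.28 for *Nes*, -0.24 for *Nfia*, -0.23 for *Sox9* and 0.12 for *Prom1*. When only the libraries of these 2 populations were fitted, 4 of the 10 were called lower in PDGFRA+ cells, *Sox2*, *Sox11*, *Pou3f2* and *Nfib*, with adjusted p-values from 0.0067 to 0.036. In that fit 5.51% of all genes were called lower and 13.1% higher. A p above the threshold in the fit to all libraries therefore does not show that these genes were equal in the 2 populations.

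PDGFRA- cells lay below GAL1- cells in *Sox2* (log2 fold change -0.79, adjusted p = 0.041), *Sox11* (-1.21, adjusted p = 0.026), *Pou3f2* (-0.999, adjusted p = 0.021), *Dcx* (-1.43, adjusted p = 0.029) and *Nfia* (-0.79, adjusted p = 0.048), which is 5 of the 10 against 6.88% of all genes called lower. The median log2 fold change of the 10 genes was -0.79, against 0.02 over all genes. The estimates that did not pass were -1.34 for *Sox9* (adjusted p = 0.076), -0.75 for *Nfib*, -0.31 for *Nes*, -0.17 for *Sox4* and 0.11 for *Prom1*. Without the T5 PDGFRA- library 0 of the 10 and 1.21% of all genes were called lower, and the adjusted p of *Sox2*, *Sox11*, *Pou3f2*, *Dcx* and *Nfia* ran from 0.094 to 0.18. Without T3, *Dcx* alone was called, and 2.68% of all genes were called lower. Without the block *Dcx* alone was called too, with 0.424% of all genes called lower, and the other 4 had adjusted p-values from 0.076 to 0.24.

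The share of each gene's variation over the 12 libraries that lay between populations set *Prom1* apart from the rest. Of the sum of squares, 90.5% lay between populations for *Pou3f2*, 86.5% for *Dcx*, 79.5% for *Sox2*, 78.0% for *Sox11* and 70.2% for *Nfia*. For *Sox9*, *Sox4* and *Nfib* it was 53.7%, 50.8% and 48.3%. For *Nes* it was 33.8%, with a slightly larger share of 36.1% between tumors. For *Prom1* 1.99% lay between populations and 87.8% between tumors, its level being lowest in all 4 libraries of T5. As these are sums of squares of 4 populations in 3 tumors, they describe the libraries and carry no test.

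The 9 genes other than *Prom1* also followed each other within tumors. After each tumor's mean was subtracted, Pearson's r over the 12 libraries ran from 0.681 to 0.994 (median 0.879) over their 36 pairs, highest for *Sox11* with *Dcx* (0.994) and *Sox2* with *Pou3f2* (0.993). The 9 pairs with *Prom1* had r from -0.28 to 0.01. The libraries share tumors and populations, so these are descriptions.

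Genes whose profile was most like that of a gene here, among the 13005 other genes with a mean log2 CPM above 1, were *Traf4* and *Slain1* for *Sox2* (r = 0.999 and 0.998 over the 12 libraries, tumor means subtracted), *Epb41l1* for *Pou3f2* (0.998), and *Fndc4* and *Drp2* for *Sox11* (both 0.999). *Galnt16* and *Cachd1* were nearest to *Dcx* (both 0.998), *Vgf* and *Hapln4* to *Sox9* (both 0.995), *Tmtc2* and *Trim2* to *Sox4* (0.993 and 0.992), *Snx27* and *Neto2* to *Nfia* (0.994 and 0.993), and *Ptn* and *Inpp5f* to *Nfib* (0.997 and 0.994). *Nes* had *Nxn* and *S1pr2* at 0.984 and 0.983, and *Prom1* had *Nt5c* and *Akt1* at 0.924 and 0.922. The best matches of *Prom1* were thus looser than those of any other of the 10. These genes were picked as the highest of all genes searched, and the libraries share tumors and sorts, so no test goes with these values.

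Other members of the same gene families were measured next. Of 12 further Sox genes 11 had a row, and in GAL1+ over GAL1- cells 7 were lower, 2 were higher and 2 were not called, with a median log2 fold change of -2.14. In that contrast 29.3% of all genes were called lower and 28.9% higher, which applies to the lists below too. The lower ones were *Sox8* (-2.99), *Sox3* (-2.86), *Sox6* (-2.65), *Sox10* (-2.33), *Sox21* (-2.25), *Sox12* (-2.14) and *Sox5* (-1.72), with adjusted p-values of 0.0021 or less. *Sox8* and *Sox10* are SOXE genes of the oligodendrocyte lineage like their relative *Sox9* of glia, *Sox3* is a SOXB1 gene like *Sox2*, and *Sox12* is the remaining SOXC gene beside *Sox4* and *Sox11*. The 2 that were higher, *Sox17* (4.15, adjusted p = 4.85e-05) and *Sox18* (2.01, adjusted p = 0.0025), are SOXF genes of endothelial cells. They rested on few reads, 1 to 4.1 reads a library for *Sox17* and 5 to 16 for *Sox18* in GAL1- cells. In GAL1+ cells these 2 genes had 19 to 38.2 and 10 to 36 reads. Of the lower genes, *Sox21* had 3.5 to 23 reads in GAL1+ libraries, and *Sox3* had 14 to 128.2. The fewer the reads, the more a fold depends on the offset of 0.5 reads. The third SOXF gene, *Sox7*, had -0.33 (adjusted p = 0.49), and *Sox13* had -0.29 (adjusted p = 0.51). Summed endothelial markers were 38.56 to 83.67 CPM in GAL1- libraries and 308.1 to 369.6 CPM in GAL1+ libraries, and their part in the SOXF values was not tested.

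All 5 other genes of the POU3 and NFI families had a row, and 4 were lower in GAL1+ than in GAL1- cells. These were *Pou3f3* (-2.63, adjusted p = 0.00023), *Pou3f4* (-2.25, adjusted p = 0.00094), *Pou3f1* (-1.94, adjusted p = 0.0027) and *Nfix* (-1.27, adjusted p = 0.00016). *Pou3f4* also had few reads in GAL1+ libraries, 7.5 to 63. *Nfic*, the remaining NFI gene, was at a mean of 6.49 in GAL1+ and 6.43 in GAL1- cells (log2 fold change 0.06, adjusted p = 0.79). In PDGFRA+ over GAL1+ cells, 7 of the 11 Sox genes and 4 of the 5 POU3 and NFI genes were higher and none was lower. Of all genes, 20.9% were called higher and 17% lower there. In PDGFRA+ over PDGFRA- cells none of these 16 was called.

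Genes of radial glia and neural stem cells, a list of 20 that holds none of the 10, showed 13 lower, 1 higher and 6 not called in GAL1+ over GAL1- cells, with a median of -1.59. The largest changes were those of *Nr2e1* (TLX, an orphan receptor of adult neural stem cells; -3.04, adjusted p = 0.0016), *Lhx2* (a LIM homeobox factor of the early forebrain; -2.81, adjusted p = 0.00027) and *Msi1* (the RNA-binding protein Musashi-1; -2.59, adjusted p = 0.00038). *Fut4*, the fucosyltransferase that makes the surface sugar CD15, which is also made in myeloid cells, was the only one that rose (2.18, adjusted p = 0.0010) and is named here after its value was seen. Of 22 neuroblast and immature neuron genes 13 had a row, and *Dlx2*, *Dlx5*, *Dlx6*, *Stmn2*, *Insm1*, *Neurod1*, *Neurod2*, *Neurog2* and *Eomes* did not. Of the 13, 9 were lower and none higher, with a median of -1.95. *Elavl4* (-2.86, adjusted p = 0.00016) and *Elavl3* (-2.84, adjusted p = 0.00019), neuronal RNA-binding proteins, and the doublecortin-like kinase *Dclk2* (-2.36, adjusted p = 0.00017) had the largest changes. In PDGFRA+ over GAL1+ cells 11 of the 20 were higher, 1 was lower, and 9 of the 13 were higher, against 20.9% of all genes called higher. Without the block, 7 of the 20 were called in that contrast, as were 2 of the 5 POU3 and NFI genes. Of all genes, 12.2% were then called higher and 5.17% lower. In PDGFRA+ over PDGFRA- cells no gene of either list was called.

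**Figure D5:**
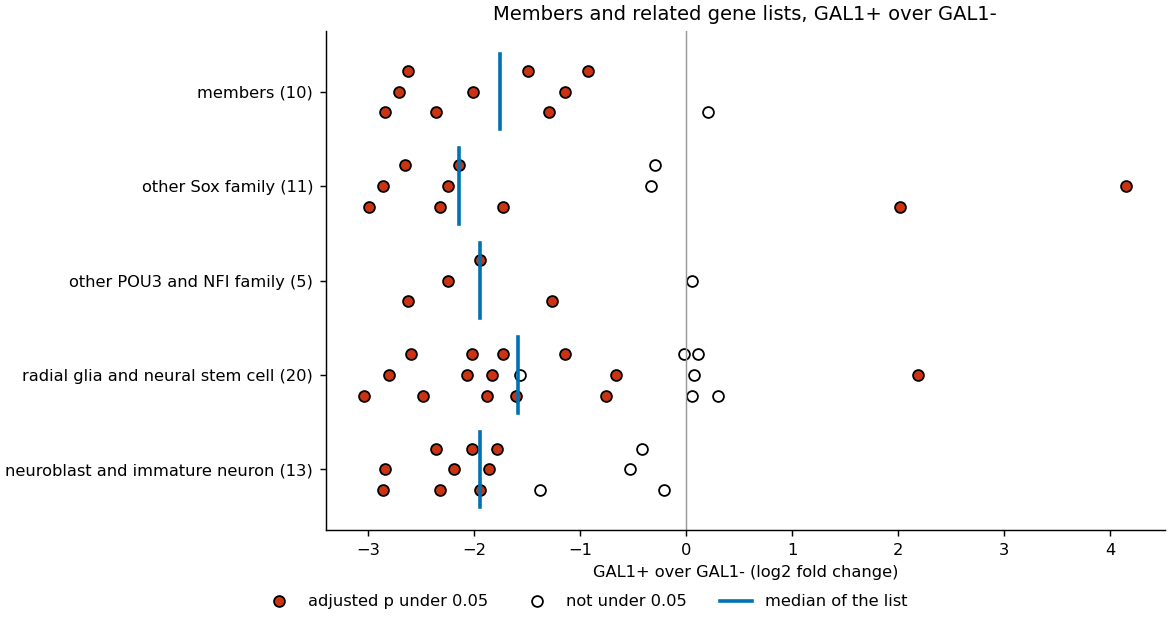
Log2 fold changes of GAL1+ over GAL1- cells (x axis) for the 10 genes and 4 related lists (number measured in brackets), filled where the adjusted p was under 0.05, with the list median as a bar. Medians lie between -2.14 and -1.59, and the 2 filled points at 4.15 and 2.01 in the Sox row are *Sox17* and *Sox18*.

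Marker genes of cell types moved in the same contrast, in both directions. Of all genes, 28.9% were called higher there and 29.3% lower. In GAL1+ over GAL1- cells all 12 pan-leukocyte genes were higher (median log2 fold change 4.74), as were the 8 microglia, 9 macrophage, 8 endothelial and 6 pericyte genes measured. The leukocyte, microglia and macrophage genes were above 3 reads in every library of all 4 groups, and *Ptprc* (CD45) was among them. All 8 oligodendrocyte progenitor genes were lower (median -2.93; *Sox10* is in this list and in the Sox family list), and so were 7 of 8 mature oligodendrocyte genes, 4 of 8 mature neuron genes and 2 of 7 astrocyte genes. The 9 genes that were lower in GAL1+ cells therefore fell together with the oligodendrocyte lineage markers while leukocyte RNA rose in the same libraries, and what part either had in the values of the 10 genes was not tested. Between PDGFRA+ and PDGFRA- cells no marker gene of these lists was called.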

How the data were processed

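RNA of 12 libraries was measured, 4 sorted populations from each of 3 tumors, with groups and tumor numbers taken from the labels. The authors trimmed reads with fastp, aligned them to mm39 with STAR, counted exonic reads with featureCounts (multi-mapping reads as fractions), removed genes unless their CPM passed 1 in 3 or more samples, and ran voom after TMM scaling. The deposited values are therefore log2 CPM, each count with 0.5 reads added. Tool versions and the strand setting are not given in the sources used here.

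From these values, reads were recovered on the footing that a library's lowest value stands for 0 reads; per library, 41.3% to 59.2% of them were whole to within 0.01. All genes and libraries were fitted with limma 3.58.1 in R 4.3.3, with coefficients for the 4 populations and for tumor, and eBayes used a trend of variance on level (3.49 prior and 6 residual degrees of freedom); tests were two-sided, with Benjamini-Hochberg adjustment over 18180 genes. This follows the authors' design, with the trend in place of voom weights. The samples of one number came from the same tumor. After the mean of each population was subtracted, 2 libraries of the same tumor had a mean correlation across genes of 0.486 (18 pairs, 0.14 to 0.662). With 3 tumors per group and tumor as a block, p-values set the mean difference between populations against how far such differences varied from tumor to tumor. This spread was pooled over the 4 populations and moderated by that of all genes. The 10 genes, the related lists and the markers were chosen with earlier results of these data known, so no list is independent support for any pattern. All 10 are named in every contrast; each family relative is named in GAL1+ over GAL1- cells and counted in others. From the other lists the 3 called genes with the largest change in the GAL1 sort are named, and for each of the 10 the 2 most correlated genes. One such gene and one allele of the model are not reported here. The fit was tested on simulated data. Alternatives were no block, only the 2 populations compared, voom weights on recovered reads, robust eBayes, log2(CPM + 1), quantile normalization, a filter that asked for a log2 CPM over 1 in 3 libraries or more, subtraction of library medians, a fold above 1.5 added to the threshold, leaving out each tumor, and leaving out the T5 PDGFRA- library. Exon lengths and overlaps are from GENCODE M21 (GRCm38) and promoters from RefSeq (GRCm38.p6). Since the reads were aligned to mm39, no coordinates other than those of the promoter windows are given. Figures were drawn with matplotlib 3.10.9.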

Additional observations from a re-analysis of the deposited data

How the results depend on the processing

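The 9 calls in GAL1+ over GAL1- cells were 8 without the tumor block and 6 to 9 with one tumor left out, all in the same direction. In PDGFRA+ over GAL1+ cells the 8 calls became 5 without the block and 4 to 7 with one tumor left out. In PDGFRA- over GAL1+ cells the 5 calls became 1 without the block, 9 without the T5 PDGFRA- library and 0 to 6 with one tumor left out. In PDGFRA- over GAL1- cells the 5 calls became 1 without the block, 0 with only the 2 populations fitted, 0 without the T5 PDGFRA- library and 0 to 5 with one tumor left out. With only the 2 populations fitted, 0.677% of all genes were called lower in that contrast. In PDGFRA+ over GAL1- cells 0 calls became 4 with only the 2 populations fitted. In PDGFRA+ over PDGFRA- cells the count stayed at 0 under all 13 alternatives. Over all genes, the counts without the block were 8392 against 10578 (GAL1+ over GAL1-), 3154 against 6900 (PDGFRA+ over GAL1+), 612 against 1504 (PDGFRA+ over GAL1-), 725 against 3652 (PDGFRA- over GAL1+) and 1444 against 4200 (PDGFRA- over GAL1-). Without T3, 0 genes were called in PDGFRA+ over GAL1- cells. The cause of these changes was not tested.

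No called difference changed sign under any alternative, and the log2 fold changes that did had not been called. With a tumor left out, the estimates in PDGFRA+ over PDGFRA- cells ran from -0.52 to 0.31 for *Sox4*, from -0.46 to 0.48 for *Nes*, from -0.20 to 0.94 for *Nfib* and from -0.038 to 0.091 for *Prom1*. In PDGFRA- over GAL1- cells they ran from -0.51 to 0.23 for *Sox4* and from -0.75 to 0.12 for *Nes*. In PDGFRA- over GAL1+ cells they ran from -0.050 to 1.43 for *Sox9* and from -0.28 to 0.060 for *Prom1*, and in PDGFRA+ over GAL1+ cells from -0.31 to 0.15 for *Prom1*. Without the T5 PDGFRA- library, PDGFRA+ over PDGFRA- values were -0.34 for *Nes* and -0.13 for *Nfib*, and PDGFRA- over GAL1- values were 0.11 for *Sox4* and 0.062 for *Nes*. *Prom1* had -0.013 with voom weights and -0.00509 with centred medians in PDGFRA+ over PDGFRA- cells, and with quantile normalization -0.060 in PDGFRA+ over GAL1- and -0.091 in PDGFRA- over GAL1- cells. Centring on library medians moved the median of all genes by -0.16 in PDGFRA+ over GAL1+ cells (where *Sox4* then had an adjusted p of 0.063), by -0.14 in PDGFRA- over GAL1+ and by -0.11 in PDGFRA+ over GAL1- cells, and quantile normalization by -0.13 in PDGFRA+ over GAL1- and -0.14 in PDGFRA- over GAL1- cells. The fewest reads were 32, for *Prom1*; the effect of depth was not tested.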
